A study of Mus musculus with 10 samples.

Results

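The Sox genes encode transcription factors that bind DNA through a high-mobility-group box first recognised in the male sex-determining factor Sry. DNA methylation was examined at 10 of them, Sox1, Sox2, Sox4, Sox7, Sox9, Sox10, Sox11, Sox17, Sox18 and Sox21. They were chosen as members of a gene family, with earlier results of these data known. All positions of the deposited table that lay inside such a gene or within 3000 bp of either of its ends were taken, which gave 1341 of the 2137824 measured cytosine positions. The windows of these 10 genes are among those of 35566 annotated genes that held at least 1 measured position.

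Mouse embryos of embryonic day 7.5 made up the 10 samples of the series, assayed by reduced representation bisulfite sequencing, which reads cytosine methylation mainly in CpG-rich fragments cut out by a restriction enzyme. By their titles 5 samples belong to an arsenic group and 5 to a control group. The labels give neither dose, route and duration of the arsenic exposure nor strain, sex or number of embryos per sample. The read counts stand in 10 sets of columns numbered 1 to 10, and these numbers match no sample title, so no column was tied to a group and arsenic and control embryos were not compared. Only their number and their deposition with the series link the columns to its samples. Each value is therefore given for the calls of all columns summed and as the lowest, median and highest library column, and any effect of arsenic lies unseen within that range.

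Sox proteins act in stem cells and in the choice of cell fate, and fall into subgroups by the similarity of their DNA-binding box. Sox1 and Sox2 belong to subgroup B1, which maintains neural progenitors and, for Sox2, also the pluripotent epiblast, while Sox21 of subgroup B2 counteracts them in neurons. Sox4 and Sox11 belong to subgroup C, and Sox9 and Sox10 are subgroup E factors of cartilage, testis and neural crest. Sox7, Sox17 and Sox18 are the subgroup F factors of endoderm and endothelium. At the stage examined the embryo is gastrulating, most of these genes are used by only some of its cells, and CpG-rich promoters are mostly free of methylation in the tissues of the embryo proper. RNA was not measured, and cell types were not separated, so a low level in the embryo can hide a higher level in a minor cell type.

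The summed coverage of the table ranged from 73509873 to 127743904 over the columns, in which a read counts at each position that it covers, and no position had fewer than 10 reads in any column. Median coverage of an autosomal position lay between 26 and 48 reads. The level over all autosomal positions was 40.2 to 44.5% across the columns. Intervals below are 95% Wilson intervals, cover counting error only, and are too narrow because neighbouring positions of 1 read are counted as separate calls.

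The DNA before the start site is shown for 3 genes with measured CpGs in this stretch, since it holds some of the least methylated positions measured. RefSeq start sites with sequence were at hand for Sox1, Sox2, Sox4, Sox11 and Sox21, 5 of the 10 genes, in the build GRCm38.p6, and not for Sox7, Sox9, Sox10, Sox17 and Sox18. All 56 measured positions that fell into the promoter entries of the 5 genes coincided with a CpG of the sequence. Each line gives 250 bases ending just before the start site, read 5′ to 3′ on the strand of the gene, with measured CpGs in capitals. They lie at chr3:34649745-34649994 on the plus strand for Sox2, and on the minus strand at chr14:118237031-118237280 for Sox21 and chr12:27342719-27342968 for Sox11.
Sox2: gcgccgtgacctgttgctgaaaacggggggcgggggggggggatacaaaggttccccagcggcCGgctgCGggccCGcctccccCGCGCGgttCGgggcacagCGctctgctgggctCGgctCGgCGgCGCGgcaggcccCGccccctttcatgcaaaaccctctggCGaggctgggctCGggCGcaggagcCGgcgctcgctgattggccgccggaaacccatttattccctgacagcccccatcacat
Sox21: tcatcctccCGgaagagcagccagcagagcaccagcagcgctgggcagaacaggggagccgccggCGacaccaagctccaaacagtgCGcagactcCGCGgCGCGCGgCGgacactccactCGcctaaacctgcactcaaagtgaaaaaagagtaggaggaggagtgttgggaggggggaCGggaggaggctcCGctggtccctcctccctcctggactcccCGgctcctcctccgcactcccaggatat
Sox11: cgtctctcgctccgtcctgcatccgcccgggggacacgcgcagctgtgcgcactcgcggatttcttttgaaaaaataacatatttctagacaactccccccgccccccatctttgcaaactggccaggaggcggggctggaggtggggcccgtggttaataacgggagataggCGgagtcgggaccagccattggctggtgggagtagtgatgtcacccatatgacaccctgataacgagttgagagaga

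In the Sox2 sequence 18 of 27 CpGs were measured, on 1 or both strands, and their 34 positions had a level of 0.78% over 13870 calls, with single positions between 0 and 5.58%. In Sox21, 13 of 17 CpGs were measured, and the level of 21 positions was 0.96% over 6972 calls, with single positions between 0 and 5.82%. Sox11 had 1 measured CpG of 17, at 1.29% over 309 calls. Thus, over the columns summed, nearly every call in these stretches was unmethylated, in Sox2 and Sox21 at each capital CpG printed above. The Sox1 and Sox4 sequences hold 29 and 11 CpGs, none measured. The motif CCGG, the site of the enzyme MspI that is usual in this assay although the labels name no enzyme, occurred 3 times in Sox2, 3 times in Sox21, 1 time in Sox11 and not in these stretches of Sox1 and Sox4. It reads the same on both strands and is present in 47.1% of the 32851 promoter entries over the same length, where the median number of CpGs was 6.

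Most of the measured DNA around the 10 genes was lowly methylated. Over the whole window 9 of 10 genes were under 20%, with a median gene level of 7.47%. Windows made in the same way around autosomal protein-coding genes held 3 or more measured positions for 17474 genes, of which 28.2% were under 20% and the median was 36.2%. Among the 9943 of them with at least 62 positions, the number in the Sox window with fewest, 31.8% were under 20% and the median was 31.2%. Since the Sox genes were chosen with earlier results of these data known and were not drawn at random, these shares are a description.

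The genes formed a graded order with 1 gene apart. Sox21 (4.30%), Sox2 (4.42%), Sox11 (4.69%), Sox17 (5.81%) and Sox1 (6.74%) made up its lower part. Sox18 (8.20%), Sox4 (10.8%), Sox9 (12.8%) and Sox7 (15.2%) followed, and Sox10 was highest at 26.7%. Between neighbours in this order the column ranges overlapped, except between Sox7, whose highest column was 17.4%, and Sox10, whose lowest column was 21.2%. The order among the lower genes depended on the window and the depth asked for. With flanks of 1000 bp Sox2 (1.25%), Sox1 (2.53%) and Sox11 (4.00%) lay below Sox21 (4.03%), and with flanks of 5000 bp Sox2 (8.32%) lay above Sox18 (8.20%). Over positions with at least 20 reads in every column Sox11 (12.0%) lay above Sox18 (9.22%). Sox10 was the highest in each of these settings. Subgroups were not uniform: the subgroup F windows spanned 5.81 to 15.2%, and Sox4 and Sox11 of subgroup C had 10.8 and 4.69%.

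**Figure D1:**
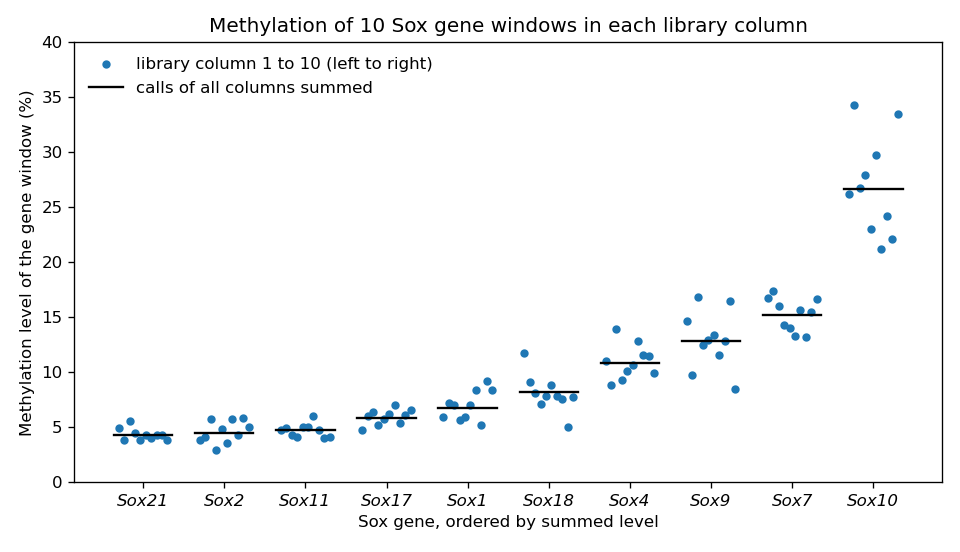
Methylation level of each gene window in percent (vertical axis), with 1 point for each of the 10 library columns and a line for the calls of all columns summed, genes ordered by that level. The points of Sox10 lie between 21.2 and 34.3%, all above those of the other 9 genes, whose points reach at most 17.4%.

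In tiles of 1000 bp the same pattern could be placed along the genes. The windows held 119 tiles, of which 71 had no measured position, 3 had only 1 or 2, and 45 had at least 3 and were used. Every measured tile was under 20% in 5 genes, Sox2, Sox11, Sox17, Sox18 and Sox21. At least 1 tile was at 20% or more in the other 5. No share over all genes is given for this count, in which Sox17 had only 3 measured tiles and Sox18 only 2. Under 20% lay 37 of the 45 tiles, or 82.2%, against 22.9% of 120073 tiles in the windows of all autosomal protein-coding genes, where a tile near several genes is counted for each. At 50% or more lay 2 of the 45, against 59.9% of those tiles. The Sox genes are short, so the comparison was repeated with the 7131 protein-coding genes no longer than Sox10, the longest at 9578 bp. Their 15112 tiles included 44.3% under 20% and 37.4% at 50% or more. The median of these tiles was 30.6%, against 7.87% for the Sox tiles and 56.2% for the tiles of all autosomal protein-coding genes. No tile comparison, here or below, was matched for the number of measured positions. A Sox window held a median of 135 positions, against 72 in the 17474 protein-coding windows.

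Many Sox tiles had a level that was low but not near 0. From 5 to under 25%, limits set once the levels were seen, lay 23 of the 45 Sox tiles, or 51.1%, against 8.56% of the tiles of all protein-coding genes and 17.2% of those of genes no longer than Sox10. Under 5% lay 17 of the 45, or 37.8%. Of the tiles of all protein-coding genes 15.9% were under 5%, and of those of genes no longer than Sox10 29.9%. Single positions were more often near 0: 58.0% of the 1341 were under 5% and 1.72% were at 50% or more, against 26.5% and 48.0% of the 2101419 autosomal positions. The 23 positions at 50% or more were found in Sox7 (8), Sox10 (8), Sox4 (6) and Sox9 (1), and in none of the other 6 genes.

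**Figure D2:**
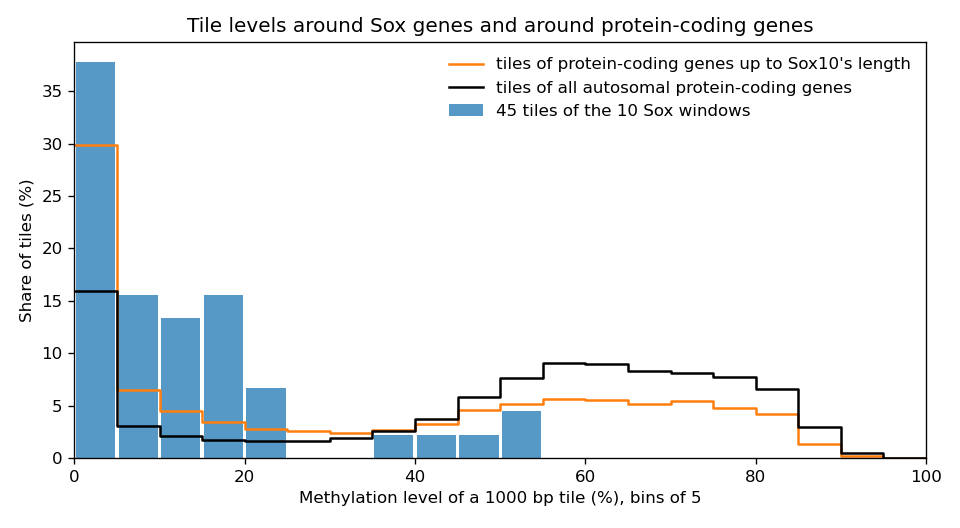
Share of 1000 bp tiles (vertical axis, percent) in bins of 5 percentage points of methylation level (horizontal axis), as bars for the 45 Sox tiles and as lines for the tiles of protein-coding genes no longer than Sox10 and of all autosomal protein-coding genes. The Sox bars fill the low bins, with 17 tiles under 5%, and end at the bin of 50 to 55%, whereas the black line has its second rise at 55 to 65%.

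The tiles with most measured positions were the least methylated. The 17 tiles with 30 to 85 positions had a median of 3.49% and a highest level of 18.1%. The 22 tiles with 10 to 29 positions had a median of 13.1%, and the 6 tiles with 3 to 8 positions a median of 29.7%. This order is a description over tiles that share the same libraries, and the number of positions reflects both CpG density and the fragments that were read. Tiles wholly outside the genes had a median of 13.1% (16 tiles), those inside 6.71% (23 tiles) and those across a gene end 3.43% (6 tiles).

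**Figure D3:**
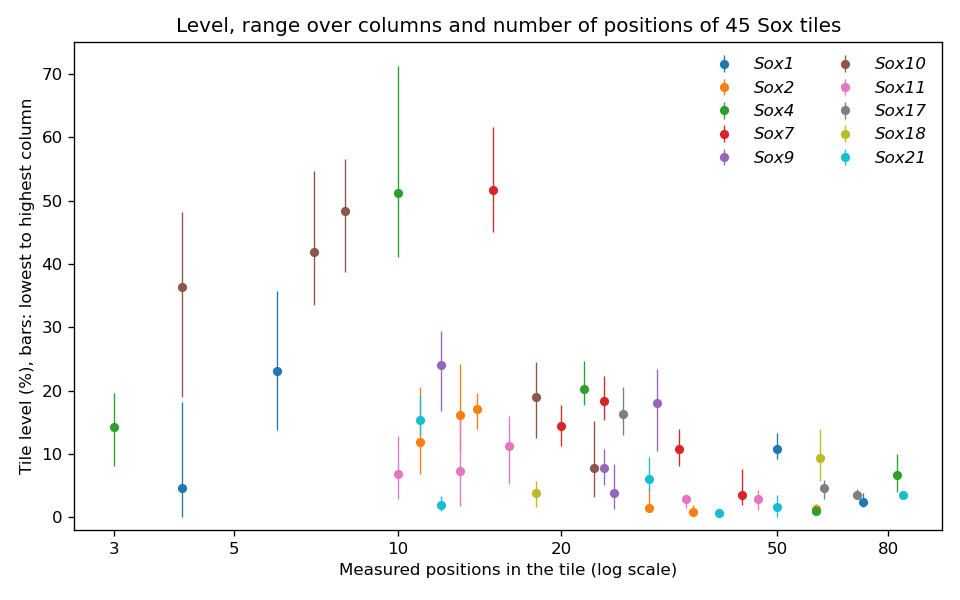
Methylation level of each of the 45 Sox tiles in percent (vertical axis) against its number of measured positions (horizontal axis, log scale), coloured by gene, with bars from the lowest to the highest library column. The tiles with 30 or more positions lie at or below 18.1%, and the 2 tiles above 50%, of Sox4 and Sox7, hold 10 and 15 positions.

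Within 1000 bp of the 5' end the measured genes with a known strand were almost free of methylation. Sox4 had 1.05% there (interval 0.94 to 1.18%, 59 positions), Sox2 1.18% (interval 1.08 to 1.28%, 94 positions) and Sox21 1.19% (interval 1.07 to 1.32%, 71 positions). Sox11 had 3.38% (interval 3.15 to 3.61%, 80 positions), and its lowest column, 2.19%, was above the highest column of the other 3 genes, 1.81% in Sox2. Sox1 had no measured position in this stretch. All 4 measured genes were under 20%, as were 83.8% of the 10761 protein-coding 5' ends measured in the same way, whose median was 2.12%, so a low level at this place is the common state. With 2000 bp on each side the levels reached 2.41% in Sox2 and 9.34% in Sox4.

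Over the genes with a known strand, methylation was low on both sides of the start site and higher further away. From 0 to 999 bp after it, 204 positions of 4 genes had a level of 1.38%, and within 1000 bp before it 100 positions of 3 genes had 1.98%, with nearly equal medians per position of 0.91% and 0.96%. The genes measured on both sides did not share a direction. Sox2 had 1.33% after the start (interval 1.21 to 1.47%) and 0.85% before it (interval 0.71 to 1.01%), Sox11 had 2.58% after and 4.25% before, and Sox21 had 1.14% after and 1.25% before, with overlapping intervals. From 1000 to 1999 bp the 250 positions of all 5 genes had 4.00%, and from 2000 bp on 226 positions had 10.4%. More than 1000 bp before the start site 36 positions of 4 genes had 31.6%, with a median position of 18.4%. The Sox4 tile with 10 of these positions was at 51.2%, and the other 26 positions, of Sox1, Sox2 and Sox11, had 17.1%. Which genes contribute differs between these distances.

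**Figure D4:**
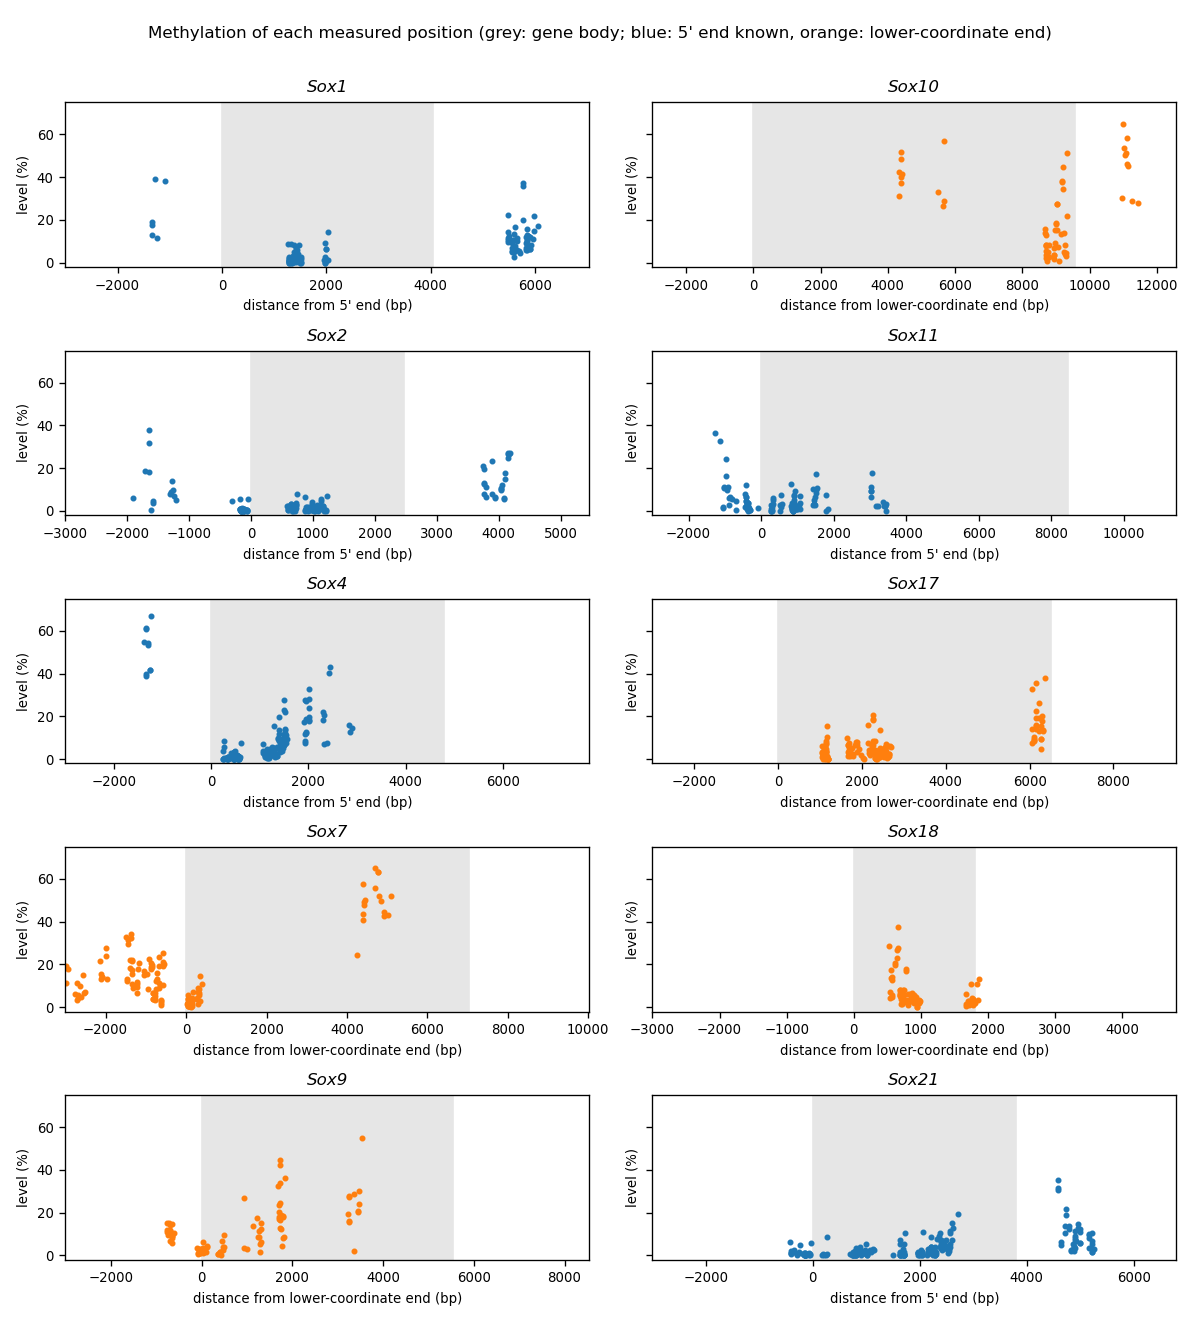
Methylation level in percent of each measured position (vertical axis, all columns summed) along the window of each gene, against the distance in bp from the 5' end where it is known (blue) and from the lower-coordinate gene end elsewhere (orange), with the gene in grey. Positions cluster in short fragments with gaps between them. In Sox4 they stay low near the 5' end, and those more than 1000 bp before it make up the tile at 51.2%.

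Among the subgroup B genes, Sox2 (chromosome 3 from 34649995 to 34652461, plus strand, mm10) had low levels near its start site and higher ones on both sides. Its 3 tiles from 1000 bp before to 2000 bp after the start site had 0.85%, 1.33% and 1.48%. Their positions lay from -312 to 1228 bp relative to the start site, with none between -57 and 583 bp. The next measured position after these lay at 3755 bp, past the 3' end. The tile from 1001 to 2000 bp before the start had 17.1%, with columns from 14.0 to 19.6%, all above the highest column of the adjoining tile, 1.99%. Past the 3' end the tiles had 11.9% and 16.2%. The window level of 4.42% (interval 4.28 to 4.57%) had a column median of 4.54% and a range from 2.89 to 5.87%, and rested on this mixture: with flanks of 1000 bp it was 1.25%, and with flanks of 5000 bp 8.32%. All 161 positions also lie inside Sox2ot, a long non-coding RNA gene that spans Sox2, and cannot be assigned to 1 of the genes.

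Sox1 (chromosome 8 from 12395519 to 12399555, plus strand) was measured mainly inside the gene and past its 3' end. The tile from 1000 to 1999 bp after the start held 72 positions at 2.49%, its lowest, and the tile from 1001 to 2000 bp before the start held 6 positions at 23.1%, its highest. Their columns did not overlap, with 1.62 to 3.87% and 13.8 to 35.7%. A further 50 positions past the 3' end had 10.8%, with columns from 9.21 to 13.4%, all above those of the 72-position tile. The other measured tile inside, nearer the 3' end, had 4.63% over only 4 positions, and its columns from 0 to 18.2% overlapped both. The window had a column median of 7.03% and a range from 5.15 to 9.20%, and its level was 2.53% with flanks of 1000 bp. All 133 positions lie inside the non-coding gene Sox1ot as well.

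Sox21 (chromosome 14 from 118233233 to 118237030, minus strand), with 226 positions the best measured of the 10, had the lowest tile of all, 0.68% (interval 0.56 to 0.82%) over the start site. From there the level was higher along the gene, with 1.63% and 3.52% in the next tiles, and highest, 15.4% over 11 positions, in the 1000 bp past its 3' end. That tile had columns from 13.0 to 19.4%, above all columns of the nearest measured tile on each side. The tile between it and the next measured one inside the gene had no measured position. The window ranged from 3.80 to 5.53% over the columns, with a median of 4.26%, the narrowest range of the 10 genes at 1.73 percentage points. The non-coding gene Gm4675 shares 51 of its positions.

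In subgroup C, Sox4 (chromosome 13 from 28948919 to 28953699, minus strand) held the sharpest contrast near a start site. Its tile over the 5' end had 1.05%, with columns from 0.55 to 1.41%. All 59 positions of this tile lay from 235 to 606 bp after the start site. The tile from 1220 to 2219 bp before the start site, with an unmeasured tile between them, had 51.2% over 10 positions (interval 50.04 to 52.4%). Its columns ran from 41.1% in column 2 to 71.3% in column 3, the widest range of any Sox tile. None came near those of the tile over the 5' end. Inside the gene the level was 6.71% in the second tile, 20.2% in the third and 14.3% in the fourth, the last over 3 positions. The window level of 10.8% (column median 10.8%, range 8.79 to 13.9%) was 6.72% with flanks of 1000 bp and 18.5% over the 59 of 177 positions with at least 20 reads in every column. All positions also lie in the non-coding gene Gm46405.

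Sox11 (chromosome 12 from 27334268 to 27342718, minus strand) was low wherever it was measured. Its 5 tiles lay between 2.86% and 11.3%, the lowest just inside the gene and the highest from 550 to 1549 bp before the start site. The column range of that highest tile, 5.27 to 16.1%, was above the 1.44 to 3.77% of the tile over the start site. The window had a column median of 4.72% and a range from 3.99 to 6.03%. No position was measured in the 3' part of the gene, and only 6 of its 119 positions had 20 reads in every column, over which the level was 12.0%.

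Of the subgroup E genes, Sox9 (chromosome 11 from 112782210 to 112787757), a regulator of cartilage and testis formation, was lowest in the first 1000 bp of its lower-coordinate end, with 3.86% over 25 positions and columns from 1.35 to 8.50%. The next tile had 18.1%, with columns from 10.5 to 23.4% that did not overlap it, and a tile further along had 24.1%, its highest. Outside that end 24 positions had 7.79%. The window ranged from 8.44% in column 10 to 16.8% in column 3, with a median of 12.9%.

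Sox10 (chromosome 15 from 79154913 to 79164490), a neural crest and glial factor, was the most methylated and the least densely measured, with 62 positions. Its lowest tile, at 7.87% over 23 positions, lay inside the gene within 2000 bp of its higher-coordinate end, and the next tile across that end had 18.9%. The highest tile, at 48.3% over 8 positions, lay outside this end, with columns from 38.7 to 56.6% above the 12.6 to 24.6% of the tile across it. A pair of tiles in the middle of the gene had 41.9% over 7 positions and 36.4% over 4. The window level had a median of 26.5% over the columns, and was 37.8% over the 21 positions with at least 20 reads in every column.

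Sox9 and Sox10 had their columns in a different order. Columns 2 and 10 were the highest for Sox10, with 34.3 and 33.5%, and the lowest for Sox9, with 9.77 and 8.44%. With each position weighted equally, which takes away the effect of unequal coverage along the window, these columns were again lowest for Sox9, with 9.16 and 8.11%. For Sox10 they had 26.9 and 25.8%, below the 28.4% of column 6. The groups of the columns being unknown, nothing can be said on arsenic from this.

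In subgroup F, Sox17 (chromosome 1 from 4490928 to 4497426), needed for endoderm formation, was measured in 3 tiles. Those from 1000 to 2999 bp inside its lower-coordinate end had 3.49% over 70 positions and 4.69% over 61. The tile across the higher-coordinate end had 16.4% over 26 positions, with columns from 13.1 to 20.6% above the highest column of the others, 5.97%. No position lay in either flank, and the window had a column median of 6.07% and a range from 4.70 to 6.998%.

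Sox7 (chromosome 14 from 63943706 to 63950732) had low levels around its lower-coordinate end and a higher level further inside. The 3 tiles outside that end had 14.4%, 18.3% and 10.9%, and the first tile inside 3.50%. The tile from 4000 to 4999 bp inside had 51.8% over 15 positions, with columns from 45.1 to 61.7%, none near the 1.94 to 7.68% of the low tile. The window level had a median of 15.6% and a range from 13.2 to 17.4%. Sox18 (chromosome 2 from 181669837 to 181671640), a factor of blood and lymphatic vessels, was low in both of its tiles, at 9.38% in the lower-coordinate part and 3.93% across the higher-coordinate end. Column 1 had the highest window level of Sox18, 11.7%, and column 9 the lowest, 4.98%, with a median of 7.83%.

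The spread between columns grew with the level. The 37 tiles under 20% had a median range of 5.75 percentage points over the columns, and the 8 others, none with more than 22 positions, 19.4 points. Over the tiles of all autosomal protein-coding genes the median range was 3.21 points under 20% and 17.3 points at 20% or more. These ranges were not matched for level. Of the 37 Sox tiles under 20%, 17 were under 5%, whereas 15.9% of all gene tiles were under 5% and 22.9% under 20%. The 3 widest Sox tiles were the Sox4 tile before the start site with 30.2 points, the 4-position tile inside Sox10 with 29.2 and the tile before Sox1 with 21.9. Of the 45 tiles 31 were under 20% in every column and 10 lay on both sides of that limit. Single columns had 34 to 39 tiles under 20% and 0 to 4 at 50% or more. No share over all gene tiles is given for these counts, which describe the Sox tiles only. Column 9 was the highest in 10 tiles, the most of any column, and the lowest in 6. It also had the highest level over all autosomal positions, 44.5%. Whether it was shifted to 1 side was not tested. Columns 4 and 8 had the lowest median gene levels, 6.39 and 6.46%, and column 1 the highest, 8.46%.

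Both strands of a CpG gave nearly the same level. At 431 CpGs measured on both strands the mean was 6.90% on the plus strand and 6.74% on the minus strand, with a median absolute difference of 1.17 percentage points. The difference was over 10 points at 5 CpGs. The largest was in Sox9 at chromosome 11 position 112785579, with 28.9% of 294 plus-strand calls and 2.19% of 137 minus-strand calls at the neighbouring base. The cause was not tested.

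The rest of the family and genes that work with Sox factors were examined by the same windows. Of 9 other Sox genes, 3 had a window level under 20% and the median was 29.5%, against 9 of 10 and 7.47% for the genes above. The windows differ in length, and no adjustment was made for it. Within 1000 bp of the 5' end all 7 measured ones were under 20%, as were 83.8% of all protein-coding 5' ends. They ran from 0.64% in Sox12 to 19.9% in Sox6 (9 positions), with a median of 10.2%, against 2.12% for all these ends. Sox14 nearly equalled Sox6, at 19.9% over 73 positions with a column range from 17.1 to 22.6%, above every column of the 4 measured 5' ends of the members. Of 12 partner factors of Sox proteins 5 of 11 measured windows were under 20%, against 28.2% of all protein-coding windows, and 6 of 7 measured 5' ends, against 83.8% of all, from 0.77% in Pou2f1 to 35.6% over 6 positions in Pou5f1, the partner of Sox2 in pluripotent cells. Their median 5' level was 5.69%. Of 19 known target genes 7 of 18 measured windows and 11 of 12 measured 5' ends were under 20%, from 1.34% in Utf1 to 41.1% in Col11a2, a cartilage collagen gene, with a median of 2.45%. The 5' end counts of both lists lie near the general share of 83.8%.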

How the data were processed

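Genomic DNA of 10 embryo samples was made into reduced representation bisulfite libraries, per the labels' protocols. Trim Galore, Bismark and methylKit and the build mm10 are named in the submitters' processing notes, with no versions or settings. The authors deposited raw counts of reads covering each cytosine position, calling it methylated and calling it unmethylated, 3 per numbered column, per the file headers. These counts added up at every position and were used without normalization. Of 2137826 rows, 2 repeated a position and were left out.

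The level is the sum of methylated calls over the sum of coverage, in percent. Tiles of 1000 bp started 3000 bp below each gene and needed 3 positions. Gene bounds came from RefSeq GRCm38.p6, the assembly of mm10, and start sites from its promoter table, using the most upstream entry. Where that table had no entry for a gene, both gene ends were used. The sum code was tested on drawn calls of known level. Genes to be named were all 10 members, their highest and lowest tiles, the 3 tiles with the widest range and the extremes of each list, besides others picked for their values. Members and lists were chosen with earlier results of these data known. No test between groups was made, since the columns name no group, and single columns that stood apart were looked for with Dixon's test. Python 3.11.15, numpy 2.4.6, pandas 2.3.3, scipy 1.17.1 and matplotlib 3.10.9 were used. Alternatives covered coverage, weighting, tiles, flanks, windows at the 5' end and leaving out each column.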

Additional observations from a re-analysis of the deposited data

Results flagged for a closer look

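Of 66 levels examined over the 10 columns (10 gene windows, 11 gene ends and 45 tiles), 6 had a highest column that stood apart from the others by Dixon's test. Chance flags about 1 in 20 such sets, many of these levels share positions, and the columns belong to an unknown mixture of arsenic and control samples.

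The tile from 1000 to 1999 bp after the Sox2 start site had 4.57% in column 7, while the other 9 columns lay between 0.87 and 1.5%. The tile just before the Sox2 start site had 1.99% in column 5, against 0.37 to 1.19% in the others. Sox11 had 6.03% over its window in column 7, against 3.99 to 5.04% in the others. The first tile of Sox7 had 7.68% in column 9, against 1.94 to 4.88%. Sox18 had 14.0% in column 1 at its lower-coordinate end, against 5.75 to 9.76%, and its first tile, which holds the same 60 positions, had the same 14.0%. The standing of these columns was not tested further.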

How the results depend on the processing

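No paired analysis was possible because the columns carry no sample names, and no test between groups was made. Leaving out each column in turn gave 37 to 38 tiles under 20%, 1 to 2 tiles at 50% or more (1 without column 3, which is the highest for the Sox4 tile before the start site), 4 genes under 20% at the 5' end and a median gene level of 7.29 to 7.63%. The median gene level was 10.6% over positions with at least 20 reads in every column, 6.27% with flanks of 1000 bp and 8.30% with flanks of 5000 bp, against 7.47% as reported. With each position weighted equally 1 tile was at 50% or more, against 2 as reported and 3 both with at least 20 reads in every column and with tiles of at least 1 position. Under the other settings run, 29 to 52 tiles were under 20%, out of differing numbers of tiles, and 3 to 5 genes at the 5' end. Sox11 and Sox10 kept the fewest positions with at least 20 reads in every column, 6 of 119 and 21 of 62. Sox4 kept 59 of 177 and Sox21 65 of 226.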
